A study of Homo sapiens with 4 samples.

Results

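The genes described here encode ATP-dependent chromatin remodelers, their partner subunits and a few relatives that share their names. They were taken by symbol from the deposited table, from the SMARC, ARID, CHD, INO80, DPF, BAZ, MTA and ACTR families and from a short list of single genes such as *PBRM1*, *BPTF*, *ATRX* and *RUVBL1*. The rule found 49 of the 10147 listed genes, and all 49 had enough reads to be tested. In RefSeq, 61 protein coding genes carry a symbol that fits the rule. The 12 others (*ARID4B*, *CHD2*, *CHD3*, *CHD4*, *CHD5*, *CHD8*, *DPF1*, *GATAD2A*, *INO80B*, *MBD2*, *RUVBL2* and *SRCAP*) were not among the listed genes. They could not be analysed, and the groups by complex below lack them. *BRD7* and *BRD9* are no members.

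The samples were K562 cells, a human chronic myelogenous leukemia line, in which the endogenous *IWS1* gene was edited to carry an N-terminal degradation tag (dTAG). All samples carry this tag. IWS1 is an elongation factor of RNA polymerase II, and dTAG7 is a ligand that sends the tagged protein to degradation. Cells received 500 nM dTAG7 (dIWS1, 2 libraries) or the solvent DMSO (control, 2 libraries) for 1 h, and newly made RNA was then labelled with 500 µM 4-thiouridine for 5 min. The study describes these as biological duplicates, and whether the cells came from 1 clone is not given in the sources used here. TT-seq reads such short-pulse RNA, so its counts follow RNA synthesis along the gene, introns included, rather than the amount of mature mRNA.

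Chromatin remodelers use ATP to slide, evict or exchange nucleosomes. SWI/SNF complexes open chromatin at promoters and enhancers, ISWI complexes space nucleosomes, and the CHD family includes the motors of the NuRD complex, which pairs remodeling with histone deacetylation. INO80 and SRCAP belong to a further family with a split motor domain, and both are linked to the histone variant H2A.Z. Many of these proteins come as close paralogs that replace each other in a complex, and several SWI/SNF subunits are frequently mutated in cancer.

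From the deposited means, 1 control column and 2 dIWS1 columns of whole reads were recovered. The control column held 29832118 reads in genes, dIWS1 column 1 held 20684301 and dIWS1 column 2 held 20886697. Both control libraries enter the table with the same counts and were taken as 1 sample, so replicate spread could be measured in the dIWS1 group alone. The numbers 1 and 2 name the dIWS1 columns here and are not the replicate numbers of the labels. All 10 markers of the erythroid K562 line were listed, and none of 9 markers of other cell types was listed. The summed normalized read counts of the 10 were 26048 in the control and 20459 and 23249 in the dIWS1 columns. *TFRC* (16010) and *NFE2* (4615) held most of the control sum, while the globin genes had 128 to 187 each. *IWS1* itself had 3684 control reads and 2334 and 2427 dIWS1 reads, a log2 change of −0.55 ± 0.15 (SE). The ligand acts on the protein, so this value does not measure the depletion.

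Each change was read with 2 scalings. With spike-in size factors, which keep a change shared by all genes, the median gene tested lay at −0.42 on the log2 scale, at −0.47 in column 1 and −0.37 in column 2. With each column scaled on the median gene, a member is read against the typical gene, and it is said to be called below or above the median gene where that difference passed the test. Changes are log2 changes (dIWS1/control) with their standard error (SE), and the threshold for a call was an adjusted p of 0.05 from limma voom with Benjamini-Hochberg adjustment over 9917 genes.

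All 49 remodeler genes had fewer normalized reads in both dIWS1 columns than in the control. Their log2 changes ran from −1.28 for *RUVBL1* to −0.11 for *ARID4A*, with a median of −0.50 (quartiles −0.68 and −0.31). At the median member, synthesis stood at 70.9% of the control. The median was −0.58 in column 1 alone and −0.43 in column 2 alone. Of all genes tested, 93.0% likewise lay below the control in both columns, and their median was −0.42.

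With spike-in scaling 36 of the 49 members fell and 13 did not pass the test, beside 65.6% of all genes tested called lower. None rose with spike-in scaling, beside 0.101% of all genes, and none by limma-trend at the same adjusted threshold. At an unadjusted p under 0.05 by limma voom, 0 members were higher. Scaling by total reads called 19 lower and 10 higher. With spike-in scaling, a share of 73.5% of members called lower is close to the 65.6% of all genes. Against the median gene 19 members (38.8%) were called below and 8 (16.3%) above, beside 15.1% and 15.3% of all genes. By position alone, 57.1% of members and 50.4% of all genes lay below it. Members were also sequenced more deeply than most genes, with 3931 control reads at the median member and 1133 at the median gene tested. The part of depth in these shares was not tested.

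**Figure D1:**
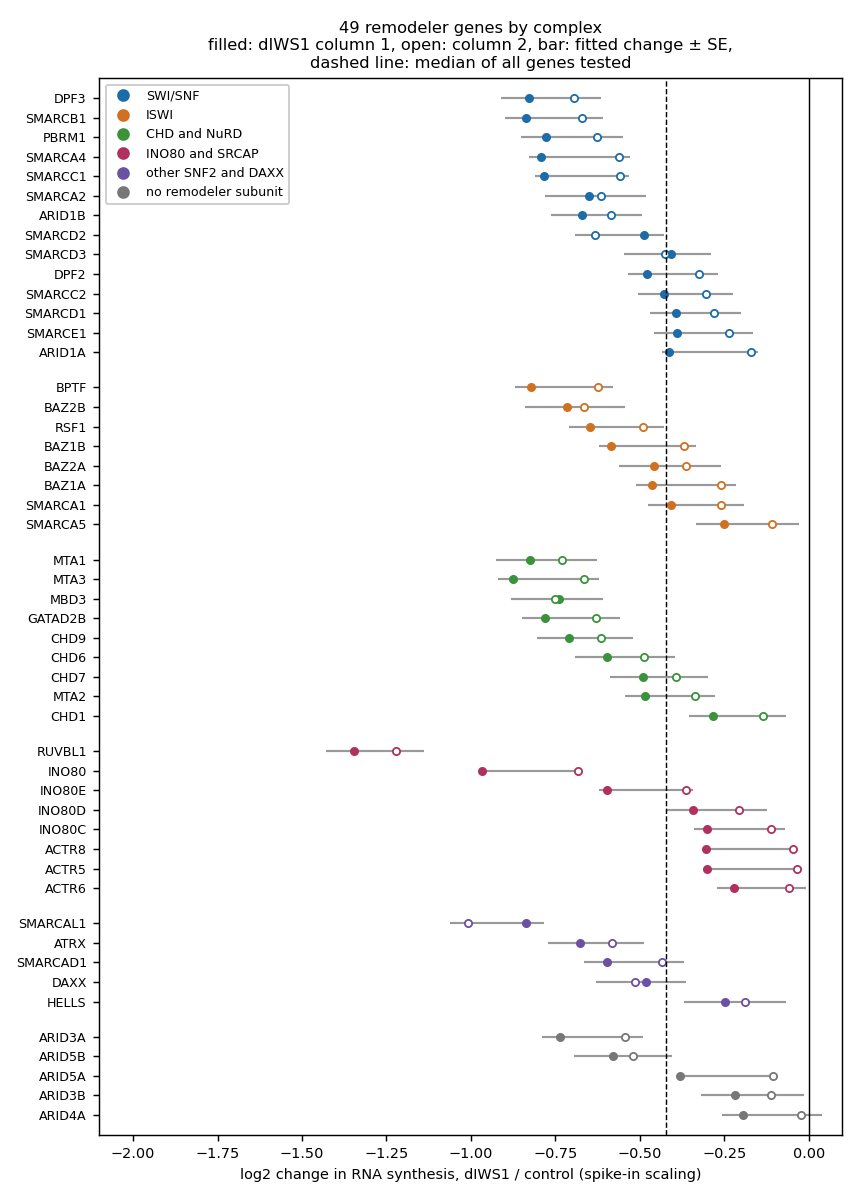
Log2 change in RNA synthesis (dIWS1/control, spike-in scaling, horizontal axis) for the 49 remodeler genes, grouped by complex. Filled and open points are dIWS1 columns 1 and 2, bars are the fitted change ± SE and the dashed line is the median of all genes tested (−0.42). All points lie below 0, from *RUVBL1* at −1.35 and −1.22 to *ARID4A* at −0.20 and −0.02.

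The order of the members was close in the dIWS1 columns (Spearman correlation of 0.94 over 49 genes, which share the same control column). Column 1 lay lower than column 2 in 44 of the 49 members. Between these columns (log2, 1 over 2) the members had a median ratio of −0.15 with an SD of 0.10, beside −0.12 and 0.13 over the 8900 genes with a mean over 100 normalized reads. This offset between the columns enters the SE of every change with spike-in scaling, whose median was 0.14 over members. With scaling on the median gene the median SE was 0.08. The shallowest member, *ARID5A*, had 318 control reads (95% exact Poisson interval 284 to 355), and the deepest, *ARID1B*, had 40872. Intervals cover counting error only.

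Of the 14 SWI/SNF genes 12 fell (85.7%, beside 65.6% of all genes), with a median change of −0.59. Against the median gene 7 were called below and 0 above, beside 15.1% and 15.3% of all genes. The SWI/SNF genes spanned 10.6 to 434.8 kb. Of protein coding genes over 100 kb, 38.4% were called below the median gene and 5.85% above it. The part of length and depth in this count was not tested. The exchangeable motor subunits both fell. *SMARCA4* (BRG1) had 7726 normalized reads in the control and 4463 and 5230 in the dIWS1 columns. *SMARCA2* (BRM) had 3894 in the control and 2483 and 2545 in the dIWS1 columns. Both genes were well below the control in both columns. The change of *SMARCA4* was −0.68 ± 0.15 (adjusted p = 3.99e-05) and that of *SMARCA2* was −0.63 ± 0.15 (adjusted p = 0.000139, both limma voom). Relative to the median gene they stood at −0.26 ± 0.07 (adjusted p = 0.00274) and −0.21 ± 0.08 (adjusted p = 0.0249).

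The lowest SWI/SNF gene was *DPF3*, which encodes a PHD finger subunit that reads acetylated and methylated histones. It had 10761 normalized reads in the control, 6056 in column 1 and 6652 in column 2, a change of −0.76 ± 0.15 (limma adjusted p = 2.96e-06). *SMARCB1*, a core subunit lost in rhabdoid tumors, had 2283, 1278 and 1435 normalized reads in the same order and a change of −0.75 ± 0.14 (limma adjusted p = 2.43e-06). Both genes were well below the control in both columns. *PBRM1*, the bromodomain subunit of the PBAF form, had 5663, 3303 and 3670 normalized reads (−0.70 ± 0.15, limma adjusted p = 2.38e-05). *SMARCC1*, a scaffold subunit, had 30734, 17865 and 20877 (−0.67 ± 0.14, limma adjusted p = 1.05e-05). *ARID1B*, a subunit of the canonical BAF form, had 40484, 25420 and 27010 (−0.63 ± 0.14, limma adjusted p = 2.42e-05). These 5 genes with *SMARCA2* and *SMARCA4* are the 7 called below the median gene. Listed SWI/SNF subunits outside the rule differed from this. *SS18* (0.37), *PHF10* (0.32), *ACTL6A* (0.31) and *BRD7* (0.20) were called above the median gene and *BRD9* (−0.22) below it. *ARID2*, *BCL7A*, *BCL7B* and *SS18L1* did not pass that test. The *SMARCD* genes, which encode variants of another core subunit, changed by −0.56 (*SMARCD2*), −0.42 (*SMARCD3*) and −0.34 (*SMARCD1*) and were called lower with spike-in scaling alone. *SMARCE1*, an HMG box subunit, and *ARID1A* did not pass the test. *ARID1A* had 18781 normalized reads in the control, 14100 in column 1 and 16695 in column 2 (−0.29 ± 0.14, limma adjusted p = 0.0592).

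Of the 8 ISWI genes 7 fell (87.5%, beside 65.6% of all genes), with a median of −0.44, near that of all genes. *BPTF*, the largest subunit of the NURF complex and a reader of methylated histone H3, had 14681 normalized reads in the control, 8301 in column 1 and 9529 in column 2. Its change was −0.72 ± 0.15 (limma adjusted p = 6.36e-06), or −0.30 relative to the median gene. *BAZ2B*, a bromodomain protein of this family, had 10115, 6155 and 6383 normalized reads (−0.69 ± 0.15) and was the other ISWI gene called below the median gene (−0.27 ± 0.07, limma adjusted p = 0.00108). *RSF1*, a partner of SMARCA5, changed by −0.57, *BAZ1B* (WSTF) by −0.48, *BAZ2A*, which silences ribosomal DNA, by −0.41, and *BAZ1A* (ACF1) by −0.36. The ISWI motors lay at the upper end of their group. *SMARCA1* (SNF2L) had 1679 normalized reads in the control and 1267 and 1402 in the dIWS1 columns (−0.33 ± 0.14, limma adjusted p = 0.0313). *SMARCA5* (SNF2H), the widely used ISWI motor, had 3965, 3330 and 3675 in this order (−0.18 ± 0.15, limma adjusted p = 0.271). *SMARCA5* did not pass the test with spike-in scaling and was called above the median gene (0.24 ± 0.08, limma adjusted p = 0.00826).

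The CHD and NuRD genes had the lowest median of the complexes, −0.66, which corresponds to 63.2% of the control. They were also long and deeply read, with a median span of 118.2 kb and 10215 control reads. Protein coding genes over 100 kb had a median of −0.55, and 38.4% of them were called below the median gene. The part of length and depth was not tested. Of the 9 members 8 fell (88.9%, beside 65.6% of all genes). Against the median gene 5 (55.6%) were called below and 1 (11.1%) above, beside 15.1% and 15.3% of all genes. Of these 5, 4 encode NuRD subunits other than its motor. *MTA1*, a scaffold that binds the histone deacetylases, had 4412 normalized reads in the control, 2491 in column 1 and 2661 in column 2 (−0.78 ± 0.15, limma adjusted p = 2.92e-06). Its paralog *MTA3* had 9204, 5019 and 5801 (−0.77 ± 0.15, limma adjusted p = 2.68e-06). *MBD3*, the methyl-CpG-binding-domain subunit, had 1339, 802 and 796 (−0.74 ± 0.14, limma adjusted p = 7.95e-07). In both columns these 3 genes stood between 54.5% and 63.0% of the control. *GATAD2B*, a subunit that links MBD proteins to the rest of the complex, had 15108, 8796 and 9770 normalized reads and changed by −0.70 ± 0.15 (−0.28 ± 0.07 relative to the median gene, limma adjusted p = 0.000279). *MTA2*, the remaining MTA paralog, changed by −0.41 and was at the median gene (0.01 ± 0.09). Of listed NuRD subunits outside the rule, *HDAC2* and *RBBP7* were called above the median gene (0.24 ± 0.08 and 0.26 ± 0.08). *HDAC1*, *RBBP4* and *CDK2AP1* did not pass that test.

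The CHD motors in the table differed among themselves. *CHD9* had 21655 normalized reads in the control, 13236 in column 1 and 14140 in column 2 (−0.66 ± 0.14, limma adjusted p = 2.16e-05). *CHD6* had 10118, 6684 and 7212 (−0.54 ± 0.15), and *CHD7*, whose loss causes CHARGE syndrome, had 15986, 11368 and 12168 (−0.44 ± 0.14). *CHD9* was called below the median gene (−0.24 ± 0.06, limma adjusted p = 0.00145), while *CHD6* and *CHD7*, at −0.12 and −0.02 relative to it, did not pass that test. *CHD1*, a motor that follows elongating polymerase and binds methylated histone H3, lay apart from them. It had 16608 normalized reads in the control, 13639 in column 1 and 15115 in column 2 (−0.21 ± 0.14, limma adjusted p = 0.176). It was called above the median gene (0.21 ± 0.07, limma adjusted p = 0.00703).

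The 8 genes of the INO80 and SRCAP complexes held both the lowest remodeler gene and several of the highest. Of the 8 genes 3 fell (37.5%, beside 65.6% of all genes), and the median was −0.24. Against the median gene 2 were called below and 3 above, beside 15.1% and 15.3% of all genes. These genes were shorter and less deeply read than most members, with a median span of 26.8 kb and 1026 control reads, whose part in the count was not tested. *RUVBL1* encodes an AAA+ ATPase that forms a ring with RUVBL2 in the INO80, SRCAP and TIP60 complexes (chromosome 3, 128064785 to 128153914, minus strand). It had 2960 reads in the control, 1145 in column 1 and 1155 in column 2, or 39.3% and 42.8% of the control after scaling. Its change was −1.28 ± 0.15 (limma adjusted p = 3.88e-16), and −0.86 ± 0.08 relative to the median gene (limma adjusted p = 8.96e-24). It ranked lowest of the 49 members in both columns.

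*INO80*, the motor of its complex (chromosome 15, 40978880 to 41116280, minus strand), had 11031 normalized reads in the control, 5639 in column 1 and 6877 in column 2. Its change was −0.83 ± 0.15 (limma adjusted p = 4.27e-07), and −0.40 ± 0.07 relative to the median gene. *INO80E* changed by −0.48 ± 0.14 (limma adjusted p = 0.00146). The remaining 5 genes did not pass the test with spike-in scaling. *ACTR6*, an actin-related subunit of SRCAP, had 898 normalized reads in the control, 771 in column 1 and 862 in column 2 (−0.14 ± 0.13). *ACTR5*, an actin-related subunit of INO80, had 471, 383 and 460 (−0.17 ± 0.13). *ACTR8*, another INO80 subunit of this kind, had 704, 570 and 682 (−0.18 ± 0.13). In column 2 these 3 genes were at 96.0%, 97.6% and 96.8% of the control, and in column 1 between 80.9% and 85.8%. *INO80C* had 1134, 920 and 1051 normalized reads (−0.20 ± 0.14), and *INO80D* changed by −0.27. *ACTR6*, *ACTR8* and *INO80C* were called above the median gene (0.28, 0.25 and 0.22, limma adjusted p = 0.0111, 0.0471 and 0.0464), the calls of *ACTR8* and *INO80C* being lost with limma-trend or another minimum of reads, and *ACTR5* was at 0.25 without passing the test (limma adjusted p = 0.0809).

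**Figure D2:**
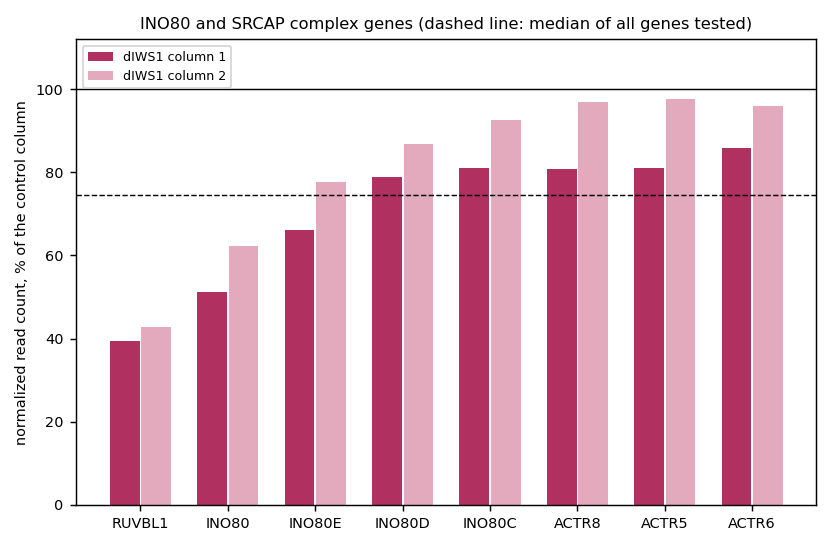
Normalized read count of the 8 INO80 and SRCAP complex genes in dIWS1 columns 1 and 2, in percent of the single control column (vertical axis, solid line at 100%). The dashed line is the median of all genes tested (74.6%). *RUVBL1* stands at 39.3% and 42.8%, and *ACTR6* at 85.8% and 96.0%.

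Among the other SNF2 relatives, *SMARCAL1* had the second lowest change of all members. It encodes an enzyme that rewinds DNA at stalled replication forks and is not known as a subunit of a remodeling complex. It had 1584 normalized reads in the control, 887 in column 1 and 786 in column 2 (−0.92 ± 0.14, limma adjusted p = 1.36e-09). Unlike most members it was lower in column 2 than in column 1. *ATRX*, which deposits histone H3.3 in heterochromatin together with DAXX, had 21378 normalized reads in the control and 13375 and 14288 in the dIWS1 columns (−0.63 ± 0.14, limma adjusted p = 5.54e-05). *SMARCAL1* and *ATRX* were also called below the median gene (−0.50 ± 0.09 and −0.21 ± 0.06). *DAXX*, the gene of the ATRX partner, had 460, 329 and 322 normalized reads in the same order (−0.50 ± 0.13) and was at −0.08 ± 0.12 relative to the median gene. *SMARCAD1*, which acts in DNA end resection and heterochromatin upkeep, had 9315, 6154 and 6894 (−0.52 ± 0.15, limma adjusted p = 0.00149). *HELLS*, a remodeler needed for DNA methylation, had 6029, 5073 and 5293 (−0.22 ± 0.15, limma adjusted p = 0.181). It was called above the median gene (0.20 ± 0.07, limma adjusted p = 0.0232).

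The 5 genes of the ARID3, ARID4 and ARID5 families share the ARID name but encode no remodeler subunit. *ARID4A*, of a SIN3 deacetylase complex, was the highest of all 49 members, with 2514 normalized reads in the control, 2196 in column 1 and 2473 in column 2 (−0.11 ± 0.15, limma adjusted p = 0.501). Relative to the median gene it was at 0.31 ± 0.08 (limma adjusted p = 0.0006). The DNA-binding protein genes *ARID3A* and *ARID3B* lay on opposite sides of the median gene. *ARID3A* had 3764, 2258 and 2582 normalized reads (−0.22 ± 0.08 relative to the median gene, limma adjusted p = 0.0191). *ARID3B* had 3740, 3213 and 3459 (0.26 ± 0.08, limma adjusted p = 0.00497). *ARID5A* and *ARID5B* did not pass the test against the median gene. Without these 5 genes the median of the other 44 members was −0.51.

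The 13 catalytic ATPases of the SNF2 type in the table had a median of −0.54, and the 36 other members one of −0.48. Of the motors 10 fell (76.9%), 6 (46.2%) were called below the median gene and 3 (*SMARCA5*, *CHD1* and *HELLS*, 23.1%) above it. Of the other members 26 fell (72.2%), 13 (36.1%) were called below the median gene and 5 (13.9%) above it. Among all genes tested these shares were 65.6%, 15.1% and 15.3%.

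Related genes, paired after their values were known, were compared within each dIWS1 column, where the scaling cancels out, and the differences were not tested. Genes of a pair share the control column, so its counting error is common to both columns, and the combined SE treats the genes of a pair as independent. The motor pair *SMARCA2* and *SMARCA4* differed by 0.14 in column 1 and −0.05 in column 2 (0.05 ± 0.11), less than its error. *ARID1B* lay below *ARID1A* by −0.26 and −0.41 (−0.34 ± 0.09). *DPF3* lay below *DPF2* by −0.35 and −0.37 (−0.36 ± 0.11). These differences were larger than 2 combined SE, as were those of *SMARCC1* below *SMARCC2* (−0.30 ± 0.10), *BAZ2B* below *BAZ2A* (−0.28 ± 0.10), *MTA1* and *MTA3* below *MTA2* (−0.37 ± 0.12 and −0.36 ± 0.12) and *CHD9* below *CHD7* (−0.22 ± 0.09). *MTA1* and *MTA3* differed by −0.01 ± 0.10. The widest pair was *ARID3A* below *ARID3B* (−0.52 in column 1 and −0.43 in column 2, −0.47 ± 0.11). In 11 of the 16 pairs the longer gene had the lower change. Some genes, such as *MTA2* and *CHD7*, enter more than 1 pair, and this count was not tested.

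**Figure D3:**
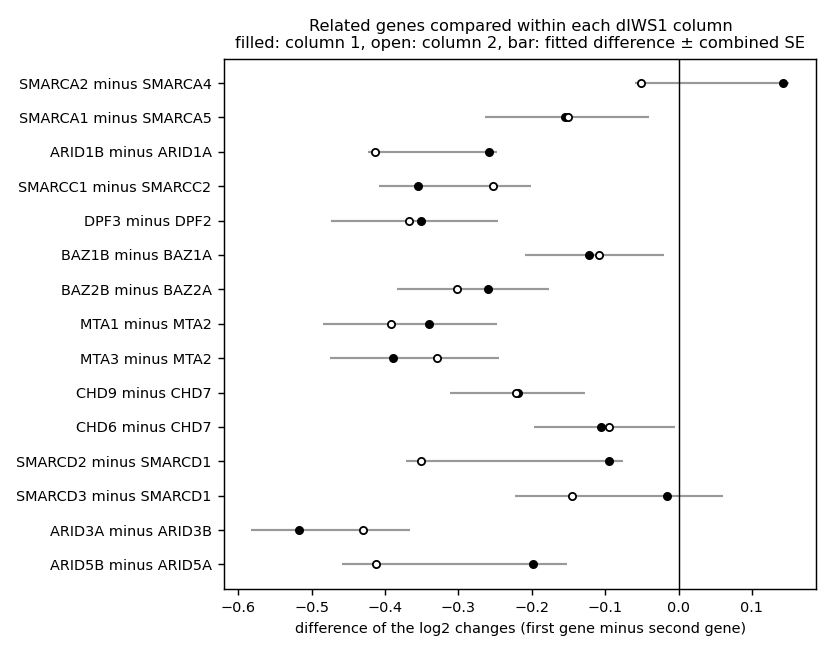
Difference of the log2 changes of 2 related genes (first minus second gene, horizontal axis) in dIWS1 column 1 (filled) and column 2 (open), with the fitted difference ± combined SE as a bar. Most pairs lie on the same side of 0 in both columns. *ARID3A* minus *ARID3B* is widest (−0.52 and −0.43), and *SMARCA2* minus *SMARCA4* straddles 0 (0.14 and −0.05). The pair *MTA1* minus *MTA3*, which also straddles 0 (0.05 and −0.06), is not drawn.

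Remodeler genes are long, with a median RefSeq span of 75.3 kb against 28.9 kb for all genes tested, and the longest of them had the lowest median change. The 18 members over 100 kb all fell, beside 89.1% of protein coding genes of that length. Their median was −0.67, and 13 of them (72.2%) were called below the median gene and 0 above it. *BAZ1A* (123 kb) was the only one of the 18 above 0 relative to the median gene (0.06 ± 0.07). Protein coding genes over 100 kb had a median of −0.55, and of these 1402 genes 38.4% were called below the median gene and 5.85% above it. Within this class the 18 members were longer and more deeply read. Their medians were 195.9 kb and 12408 control reads, beside 153.9 kb and 6961 for the protein coding genes. The 19 members of 25 to 100 kb had a median of −0.37, beside −0.35 for 3393 protein coding genes of that length. Of these members 5 (26.3%) were called below the median gene and 6 (31.6%) above it, beside 13.1% and 25.6% of such genes. The 12 members under 25 kb had a median of −0.37, beside −0.43 for 3757 such genes. Of these members 1 (*MBD3*, 8.33%) was called below the median gene and 2 (16.7%) above it, beside 7.13% and 11.4% of such genes. The classes under 100 kb thus had the same median. The members over 100 kb were also the most deeply read, with a median of 12408 control reads beside 3776 and 809 in the shorter classes, and the separate parts of length and depth were not tested.

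Over the 49 members, the Spearman correlation between length and log2 change was −0.46, and that between control reads and log2 change was −0.34. Over 8552 protein coding genes the correlation with length was −0.05. Their class medians ran −0.43, −0.35 and −0.55 with rising length, a course that a rank correlation does not capture. Both lowest members, *RUVBL1* (89.1 kb) and *SMARCAL1* (70.6 kb), belong to the middle length class, as does the highest, *ARID4A* (75.3 kb). At similar length, *RUVBL1* changed by −1.28 and *ARID4A* by −0.11.

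**Figure D4:**
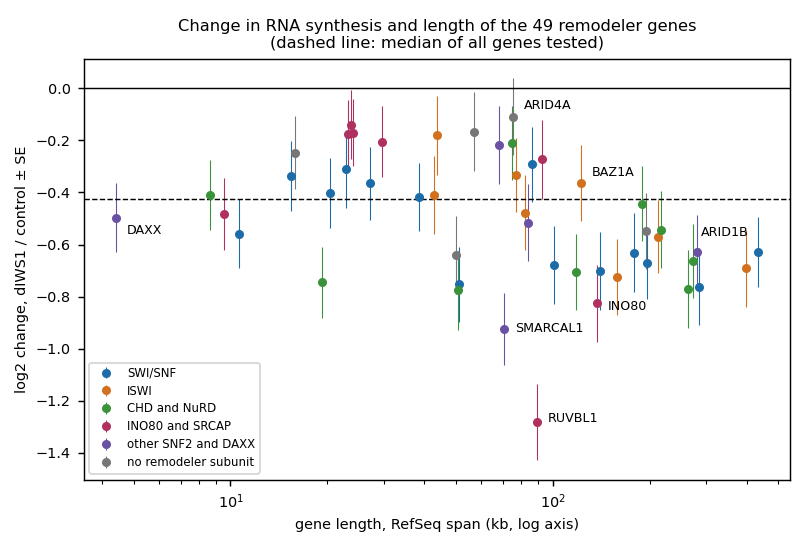
Log2 change (dIWS1/control, spike-in scaling, ± SE, vertical axis) against gene length (RefSeq span in kb, log axis) for the 49 remodeler genes, colored by complex. The dashed line is the median of all genes tested (−0.42). Of the 18 genes over 100 kb only *BAZ1A* (−0.36) lies above this line, while genes of the middle length class range from *RUVBL1* at −1.28 to *ARID4A* at −0.11.

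Synthesis levels per length also differed among the members. In the control column, *CHD1* had 221 normalized reads per kb of gene span, *ARID1A* 218 and *BAZ1B* 209. At the other end *SMARCD3* had 14.6, *ACTR5* 19.6 and *ARID5A* 19.8 per kb. Of the paired motors *SMARCA4* (76.3 per kb) was above *SMARCA2* (21.8 per kb), and *SMARCA5* (90.6 per kb) above *SMARCA1* (21.8 per kb). These are levels of RNA synthesis in 1 control sample and have no spread.

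Promoters were searched for short motifs as a further feature the members might share. RefSeq promoter sequences (GRCh38.p14, 250 bases before to 50 after the start) were matched for 39 of the 49 members and 7438 of the genes tested. The ETS core CCGGAAGT, on either strand, was found in 3 of the 39 (7.69%), beside 10.3% of all promoters. The CCAAT box was in 38.5% of members and 37.5% of all promoters, and the GC box GGGGCGGG in 35.9% and 39.5%. The YY1 motif AAGATGGC was in 7.69% and 6.37%, and the TATA motif TATAAAA in 2.56% and 1.69%. The NRF1 motif TGCGCATGC and the CRE motif TGACGTCA were in 0 of the 39, beside 3.05% and 3.55% of all promoters. These shares are close to the background, and a match is not a bound site. The ETS cores found in these 39 promoters are shown, as the sequence behind that count, with the motif in capitals and read along the gene's strand:

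*INO80E* (chr16:29996211-29996240, plus strand): cagccttgcagcgtctCCGGAAGTggaggc

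*MTA2* (chr11:62601890-62601929, minus strand): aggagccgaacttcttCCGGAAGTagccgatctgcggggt

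*ACTR6* (chr12:100200695-100200734, plus strand, motif on the other strand): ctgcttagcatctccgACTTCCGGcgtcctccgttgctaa

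Of a list of 42 remodeler subunits and SNF2 relatives outside the rule 30 were in the table, with a median of −0.35 (quartiles −0.53 and −0.23), which overlaps the range of the members. Their median span was 33.2 kb, and the difference from the members was not tested. With spike-in scaling 17 of the 30 fell (56.7%, beside 65.6% of all genes) and 0 rose. Against the median gene 2 (6.67%) were called below and 8 (26.7%) above, beside 15.1% and 15.3% of all genes. The 3 lowest were *ZRANB3*, a relative of *SMARCAL1* that also acts at replication forks (−0.70 ± 0.15), *BRD9*, a bromodomain subunit of the non-canonical BAF form (−0.64 ± 0.15), and *DMAP1*, a subunit of SRCAP and TIP60 (−0.59 ± 0.15). The 3 highest were *ERCC6L*, a motor that works at mitotic centromeres (0.05 ± 0.13), *SS18*, a BAF subunit (−0.05 ± 0.15), and *PHF10*, a PBAF subunit (−0.10 ± 0.13). *SS18* had normalized read counts of 8334 in the control, 7468 in column 1 and 8667 in column 2. None of these 3 passed the test with spike-in scaling. All 3 were called above the median gene (limma adjusted p = 0.0002, 3.7e-06 and 0.00203).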

How the data were processed

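TT-seq libraries of K562 cells with tagged IWS1 were aligned by the authors with STAR 2.6.0 to GRCh38 plus spike-in sequences, keeping unique alignments. Read pairs were counted by strand over RefSeq genes, overlapping genes were removed, and genes under a minimum read density were dropped. The deposited table gives 1 mean signal per gene (counts divided by spike-in size factors, averaged over 4 library columns). It also holds the log2 fold changes, standard errors, Wald scores and p-values of the authors' DESeq2 comparison, of which only the log2 fold changes were used, to split the means as below, and none is printed.

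Whole reads were recovered from the deposited means. The means up to 2 are built from 3 steps, the value of 1 read in each column. For the 5206 genes with a mean up to 1000, whole reads were found from the mean alone, and each had 1 solution. For higher means, the split also had to give the deposited log2 ratio within 0.02, and again each had 1 solution, 10136 genes in all. One column enters with the weight of 2 and is the denominator of the deposited ratio, which the study describes as dIWS1/control. The 2 control libraries thus enter as 1 set of counts and were treated as 1 sample. The spread between controls is unknown, and the lone control is assumed to vary like the dIWS1 columns.

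Reads were fitted with limma voom (limma 3.58.1, R 4.3.3) with group as the only term, over 9917 genes with a mean of at least 10, and p-values were Benjamini-Hochberg adjusted over all of them. This differs from the test of the study, since library counts are not analysed here. Library scaling used the spike-in size factors, or the median gene (each column scaled to a median ratio of 0 to the control). Log2 ratios of single columns used a pseudocount of 0.5. The recovery of reads and the limma fit were each tested on simulated data. RefSeq spans are those of GRCh38.p14, and exon numbers those of the GENCODE canonical transcripts. Scripts ran in Python 3.11.15 (numba 0.67.0, pandas 2.3.3, numpy 2.4.6, matplotlib 3.10.9, scipy 1.17.1). The members, gene lists and pairs were chosen with earlier results of these data known. Reads in every column and the change with its error are given for the 5 lowest and 5 highest members. They are also given for members called relative to the median gene and for the ATPases. Of the partner genes, the 3 lowest, the 3 highest and listed SWI/SNF and NuRD subunits are named.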

Additional observations from a re-analysis of the deposited data

How the results depend on the processing

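The scaling set how many remodeler genes were called. In place of 36 lower and 0 higher with spike-in size factors, scaling on the median gene gave 19 lower and 8 higher, and scaling by total reads 19 lower and 10 higher, with medians of −0.075 and −0.055 in place of −0.50. The 19 genes lower by total reads were all among the 36. Each dIWS1 column alone gave medians of −0.58 and −0.43. Counts against the median gene moved most when the control column entered 2 times (13 higher) and at an adjusted p under 0.01 (4 higher). Without a minimum, with a minimum of 100 or by limma-trend 6 were higher, *ACTR8* and *INO80C* being lost, and in each of these 3 settings all 19 lower genes were kept. By limma-trend *BAZ1A*, *SMARCA1* and *SMARCD1* lost their spike-in call, and 5461 of all genes were lower in place of 6510. With the control column entered 2 times, 41 were lower, among them all 36. Over all genes this entry gave 7824 lower in place of 6510 and 46 higher in place of 10. It also gave 2668 lower and 2687 higher than the median gene in place of 1497 and 1515. By total reads 1398 of all genes were lower and 1913 higher in place of 6510 and 10, with a median of 0.02.

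No paired analysis was possible because the recovered dIWS1 columns carry no replicate number and the control libraries form 1 column. Calls with a dIWS1 column left out were not run, since no residual degrees of freedom are left. With 1 control sample the error of the control level is shared by all values of a gene, and counting error is widest in the genes with few reads, such as *ARID5A*, *DAXX* and *ACTR5*.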
